A study of Mus musculus with 401 samples.

Results

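Single oocytes of young mice and of calorie-restricted mice were compared gene by gene. These were the 16 oocyte libraries labelled Young (2 months of age, fed ad libitum) and the 27 labelled CR (9 months, calorie restriction begun in adulthood and deepened in steps), 43 of the 401 libraries of the series, chosen by their labels alone. All mice were B6D2F1 females. The oocytes were at the germinal vesicle stage, from fully grown follicles after hyperovulation with eCG or CARD HyperOva, and the labels do not say which mouse received which. The young oocytes came from 2 mice (4 and 12 oocytes) and the CR oocytes from 3 mice (3, 11 and 13 oocytes), so oocytes of the same mouse are not independent animals. The middle group (9 months, ad libitum, 14 oocytes after 1 was left out) and the old group (14 months, ad libitum, 16 oocytes) were used only to place young and CR oocytes on a common scale. The comparison asks whether oocytes of restricted mice resemble those of young mice. Young and CR mice differed in age and in diet at once, so that the part of each in a difference cannot be told apart here.

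A fully grown oocyte at the germinal vesicle stage is arrested in the first meiotic prophase and is nearly silent in transcription. Its RNA is a store built during growth, which carries the cell through the meiotic divisions and the first steps of embryonic life until the embryonic genome is switched on. Chromosome cohesion is established before birth and is held by cohesin rings for the whole of the arrest, and its loss with age precedes segregation errors. Calorie restriction is a reduction of food intake without malnutrition, which in many animals delays the decline of function with age.

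RamDA-seq, which reads total RNA along whole transcripts and uses no molecular identifiers, gave 559305 to 2843602 counts per young oocyte (median 2209914) and 2752043 to 4536690 per CR oocyte (median 3578882), a depth gap that runs with the groups. Middle and old oocytes had medians of 2332126.5 and 2293312.5 counts, near that of the young, so by the median the CR group alone was deeper. Whether CR libraries were handled apart from the others was not tested. The summed level of 13 oocyte markers was 10887 to 22217 CPM (counts per 1000000, TMM-normalised, median 19074) in young and 11530 to 23175 CPM (median 19443) in CR libraries, so each library carried the oocyte signal. The 10 cumulus cell markers, as a share of their level in a median cumulus library of the same group, stood at 0.938% to 13.7% (median 1.57%) in young and 1.23% to 18.9% (median 2.15%) in CR oocytes (two-sided permutation test, p = 0.56). Theca and luteal markers together stayed at or under 12.3 CPM and blood cell markers at or under 8.71 CPM in both groups. In 5 libraries, young oocytes 10 and 16 and CR oocytes 1, 4 and 14, the cumulus share was over 10% or the mitochondrial share over 2%. Whole-library measures and list counts that these libraries moved by more than 1.5 times are given with and without them.

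About 33.3% of the detected transcriptome differed between young and CR oocytes. Of 25087 genes tested, 8361 passed a false discovery rate of 5% in edgeR's quasi-likelihood test, which is the background against which each gene list below is read. Of all tested genes, 18.6% (4662) were higher and 14.7% (3699) lower in CR oocytes, and the median log2 fold change of all genes was 0.05. Both shares were larger among better expressed genes. Of 8617 protein-coding genes with a mean of at least 8 CPM, 2751 were higher and 2068 lower. The changes were graded rather than all or none. The values of the 16 young and 27 CR oocytes did not overlap at all for 234 genes, 0.933% of those tested. After the counts were summed per mouse, so that each of the 5 mice counted once, 3948 genes (15.7%) passed, 1938 higher (7.73%) and 2010 lower (8.01%). A gene counted as stable over mice when it passed in the same direction in all 5 fits that each left out 1 mouse, and 3124 genes (12.5%) did so. Without the 5 libraries that stood apart, 8881 genes (36.4%) passed, 4744 higher (19.4%) and 4137 lower (17%).

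The direction of change followed the base composition of the transcripts. Among genes with at least 8 CPM, the eighth with the lowest GC content (28.1% to 41.8% GC) held 62.7% of genes higher and 6.14% lower in CR oocytes, with a median log2 fold change of 0.40. In the eighth with the highest GC content (56.2% to 75%), 5.05% were higher and 58.1% lower, with a median of -0.38. Transcript length ran the same way but less steeply. Of the shortest eighth 20.2% were higher and 40.1% lower, and of the longest eighth 44.2% were higher and 8.4% lower. The same slope was visible in single libraries. For each library, the median log2 deviation from the mean of all oocytes was taken in the lowest GC eighth, less that in the highest. It was -0.73 to 0.06 (median -0.54) in young oocytes and -0.01 to 0.98 (median 0.28) in CR oocytes. Middle and old oocytes spread over both (-0.77 to 0.54, median -0.27, and -0.84 to 0.88, median 0.19). In the cumulus cell libraries of the same groups the values lay at -0.29 to 0.34 in young and -0.37 to 0.21 in CR complexes, with medians of 0.01 and -0.12. The cause of this slope was not tested.

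**Figure D1:**
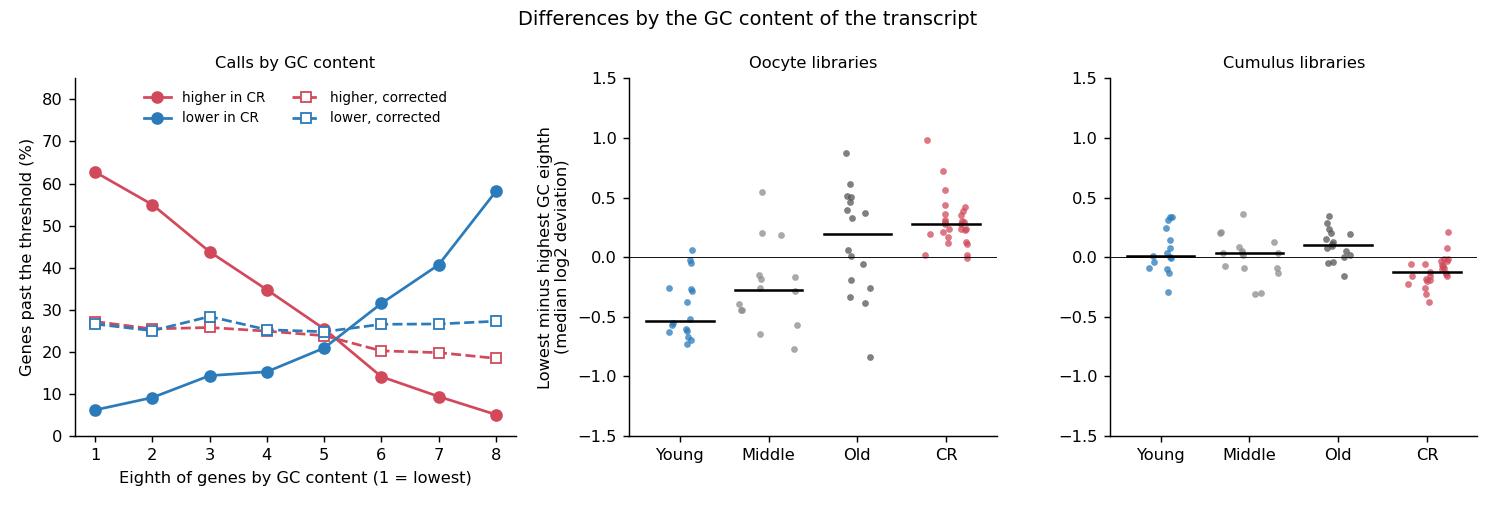
Calls by GC content and the GC trend of each library. The left plot gives, for each eighth of genes by GC content (x axis), the percentage of genes higher and lower in CR oocytes (y axis), as deposited and after correction, and the other 2 plots give the GC trend (y axis, log2) with 1 point per library for oocytes and for cumulus cells of each group, with the median as a bar. The share of genes higher in CR fell from 62.7% to 5.05% across the eighths, and young oocytes (median -0.54) lay below CR oocytes (median 0.28).

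Each count was therefore also corrected, library by library, for its trend with gene length and GC content, and the counts of each list below are given both ways. After correction, 7333 of 24981 genes passed (29.4%), 3658 higher (14.6%) and 3675 lower (14.7%), with 27.2% higher and 26.6% lower in the lowest GC eighth and 18.4% and 27.3% in the highest. The correction left a smaller slope in the share of higher genes and little in that of lower genes. Of these calls, 5663 were shared in the same direction with the uncorrected fit and 41 were opposite. A gene that is both AT-rich and higher in CR oocytes is thus read here by its value after correction as well as before.

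CR oocytes lay farther from the young profile than middle oocytes of the same age fed ad libitum did. Their libraries were also deeper in the median than those of every group fed ad libitum, so library handling cannot be told apart from diet here. The distance of each oocyte was the root mean square difference in log2(CPM + 1) from the mean of the young oocytes (for a young oocyte, of the other young oocytes), over 9706 genes, after each library was drawn down to 1000000 counts (15 young oocytes reached that depth). Young oocytes lay at 0.373 to 1.02 (median 0.454), middle oocytes at 0.397 to 0.749 (median 0.443), old oocytes at 0.426 to 1.65 (median 0.658) and CR oocytes at 0.544 to 0.945 (median 0.611). The lowest CR oocyte lay above the median of young and of middle oocytes. CR differed from young (0.144 higher on average, two-sided permutation test, Holm-adjusted p = 0.00063), and middle did not pass (0.00823 higher, Holm-adjusted p = 0.889). Old oocytes also passed (0.252 higher, Holm-adjusted p = 0.0146 over oocytes by the same test, exact permutation p = 0.667 over mouse labels). CR oocytes were also compared with middle and with old oocytes, 2 comparisons added after seeing the data. CR was 0.136 higher than middle (Holm-adjusted permutation p = 8e-05). The difference of CR from old oocytes was -0.109 and did not pass (Holm-adjusted permutation p = 0.114, exact p = 0.9 over mouse labels).

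Averaged by mouse, CR mice lay above young mice, while middle and CR mice overlapped. The means of the young mice were 0.486 and 0.492, those of the CR mice 0.707, 0.641 and 0.612, and those of the middle mice 0.461, 0.503, 0.623 and 0.490. All CR mice lay above both young mice, for which the exact permutation test over mice gave p = 0.1, the smallest that 2 against 3 mice can give. Middle mouse 3, with 1 oocyte in this measure, lay above CR mouse 3, and the exact test of middle against CR mice gave p = 0.0857, where 0.0286 is the smallest possible. After correction for length and GC content the medians were 0.430 in young, 0.434 in middle and 0.567 in CR oocytes. CR still differed from young (Holm-adjusted permutation p = 0.00018 over oocytes, exact p = 0.1 over mice). The same held against middle oocytes (permutation p = 2e-05 over oocytes), where the exact test over mice gave p = 0.0571. Without the 5 libraries that stood apart, young oocytes lay at 0.376 to 0.525 and CR oocytes at 0.543 to 0.673, with no overlap. The permutation p over oocytes was 1e-05, the smallest that 100000 resamples can give, and the exact p over mice was 0.1. The difference of CR from young did not pass without drawing down or without young mouse 2. Without drawing down it was 0.0985 (Holm-adjusted permutation p = 0.121), and without young mouse 2 it was 0.120 (Holm-adjusted permutation p = 0.0636). The setting without drawing down held 16 young oocytes instead of 15, since the library too shallow to be drawn down entered it. Depth and that added library were not separated. The higher distance of old oocytes rested on the mouse label that joins 2 old mice, since without it the old and young means differed by -0.000481.

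**Figure D2:**
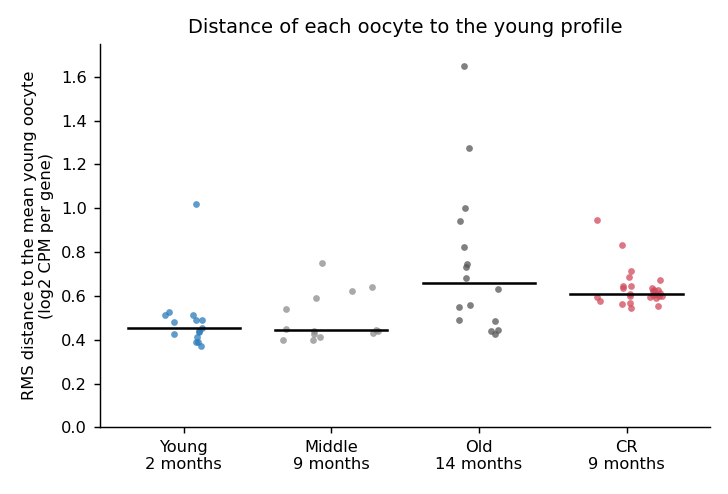
Distance of each oocyte to the young profile (y axis, root mean square difference in log2(CPM + 1)) by group (x axis), 1 point per oocyte, in columns by mouse label, with bars at the group medians. CR oocytes began at 0.544, above the young and middle medians of 0.454 and 0.443, and the farthest old oocyte was at 1.65.

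Other whole-library measures separated the groups less. At the common depth, 16152 to 17965 genes (median 16661) were detected in young and 16225 to 18561 (median 16951) in CR oocytes (permutation p = 0.255). At the depth as deposited the medians were 18627 and 20298, with the depth gap described above. The spread was the distance of each oocyte from the mean of the other oocytes of its own mouse, so it leaves out differences between mice. Its median was 0.470 in young and 0.413 in CR oocytes (permutation p = 0.317). Without the 5 libraries that stood apart the mean difference was -0.0363 (permutation p = 0.0293 over oocytes, exact p = 0.6 over mice, with CR mouse 1 above both young mice). CR mouse 1 gave only 3 oocytes, fewer after that exclusion. A mean of few other oocytes is less steady, which raises this measure in mice with few oocytes. The means of the mice are therefore not on an equal footing. The share of counts on mitochondrial genes was 0.360% to 5.31% (median 0.562%) in young and 0.672% to 3.47% (median 0.961%) in CR oocytes (permutation p = 0.65). Without those 5 libraries it was higher in CR oocytes by 0.395 percentage points (permutation p = 1e-05 over oocytes, exact p = 0.1 over mice, the smallest possible).

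Among genes with a mean of at least 20 CPM that passed with each mouse left out, the largest fall was that of Cdo1, the cysteine dioxygenase that begins the breakdown of cysteine towards taurine. Young oocytes held 180.2 to 459 CPM (median 332) and CR oocytes 9.31 to 77.4 CPM (median 23.3), so the 2 groups were separated by a wide gap and every CR oocyte was below every young one. The level was 10.3-fold lower in CR oocytes (log2 fold change -3.36 ± 0.21 (SE), adjusted p = 1.65e-17, edgeR). By mouse, the means were 240.3 and 337 CPM in young mice and 25, 43.3 and 20.7 CPM in CR mice. The log2 fold change stayed between -3.85 and -2.98 whichever mouse was left out and was -3.31 after correction for length and GC content. On a scale set over the 4 oocyte groups, the medians of young, middle, old and CR oocytes were 339, 137, 176 and 24 CPM, so middle and old oocytes lay between young and CR.

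The other large falls were of transcription factors, RNA-binding proteins and enzymes. Nfatc2, a calcium-regulated transcription factor, had 22.2 to 52.3 CPM (median 37.9) in young and 7.46 to 24.6 CPM (median 14.6) in CR oocytes (log2 fold change -1.38 ± 0.11 (SE), adjusted p = 7.48e-15). Sox8, of the SOX family of transcription factors, went from 44.4 to 107 CPM (median 74) to 18.3 to 49.3 CPM (median 33.2) (log2 fold change -1.24 ± 0.10 (SE), adjusted p = 1.63e-14). Glis1, a zinc finger factor of the oocyte and early embryo, had 34 to 81.5 CPM (median 48.3) against 10.7 to 42 CPM (median 22.3) (log2 fold change -1.21 ± 0.12 (SE), adjusted p = 2.19e-11). In all of these the ranges of the groups touched only at their edges. Ada, the adenosine deaminase of purine salvage, did not overlap, with 29.7 to 80.4 CPM (median 44.1) in young and 11.4 to 28.9 CPM (median 19.2) in CR oocytes (log2 fold change -1.26 ± 0.10 (SE), adjusted p = 7.97e-14). On the scale of 4 groups, the medians in young, middle, old and CR oocytes were 38.8, 31, 29.5 and 14.8 CPM for Nfatc2, 74.7, 66.3, 46.6 and 34 CPM for Sox8 and 45.2, 32.3, 35.8 and 19.5 CPM for Ada. Trim35, of the TRIM family of ubiquitin ligases, fell by 1.31 on the log2 scale with more overlap (median 63.1 against 21.6 CPM).

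The other 4 of the 10 largest falls by that rule were in genes whose counts were often not whole numbers. The counting divided a read that maps to several genes, and over all genes 37.2% of nonzero counts were not whole. How many reads of a gene were divided was not measured. Gtf2ird1, a transcription factor of the TFII-I family, had 45.3 to 117 CPM (median 77.1) in young and 11.9 to 40.7 CPM (median 28.4) in CR oocytes (log2 fold change -1.61 ± 0.12 (SE), adjusted p = 2.14e-15), and its count was not whole in 86% of the libraries that detected it. This share was 67.4% for Atp5j2, a subunit of the ATP synthase (log2 fold change -1.20 ± 0.14 (SE), adjusted p = 1.65e-09), 55.8% for Msi2, an RNA-binding protein (log2 fold change -1.28 ± 0.26 (SE), adjusted p = 6.69e-05), and 39.5% for Lgsn, a glutamine synthetase-like protein of the lens (log2 fold change -1.42 ± 0.13 (SE), adjusted p = 3.50e-12), the last near the share over all genes. All 4 were lower in CR oocytes with each mouse left out and after correction.

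The largest rise by the same rule was of Wls, the carrier that brings Wnt ligands to the cell surface (chr3:159839672-159938664, plus strand, GRCm38). Its level was 3.38 to 23.1 CPM (median 11.7) in young and 40.05 to 88.5 CPM (median 59.9) in CR oocytes, 5.20-fold higher (log2 fold change 2.38 ± 0.14 (SE), adjusted p = 5.64e-18), with the lowest CR oocyte well above the highest young one. The means of the young mice were 12.6 and 11.4 CPM and those of the CR mice 63.3, 61.8 and 60.3 CPM. Over the 4 groups the medians in young, middle, old and CR oocytes were 11.9, 15.7, 9.32 and 62.2 CPM, and the highest of any young, middle or old oocyte was 27.3 CPM against 40.6 CPM in the lowest CR oocyte. CR oocytes thus lay apart from all 3 groups fed ad libitum on this gene. After correction the log2 fold change of this gene was 2.02.

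Gpcpd1, a glycerophosphocholine phosphodiesterase of membrane lipid turnover, rose from 48.8 to 90.9 CPM (median 68.6) to 148 to 260.5 CPM (median 193) (log2 fold change 1.51 ± 0.08 (SE), adjusted p = 9.05e-21), again with no overlap, although its count was not whole in 55.8% of the libraries that detected it. Xiap, the X-linked inhibitor of caspases, had 9.70 to 31.4 CPM (median 21.5) in young and 40.2 to 88.5 CPM (median 59.3) in CR oocytes (log2 fold change 1.61 ± 0.11 (SE), adjusted p = 6.63e-16). AW549877, a gene of unassigned function, had 11.1 to 27.8 CPM (median 20.01) and 45.6 to 87.1 CPM (median 56.7) (log2 fold change 1.59 ± 0.10 (SE), adjusted p = 4.27e-18). Neither of these 2 overlapped between the groups, and their log2 fold changes after correction were 1.10 and 1.17. Ust, a sulfotransferase of dermatan and chondroitin chains, rose from 1.45 to 47.5 CPM (median 18.4) to 41.8 to 126 CPM (median 77.5) (log2 fold change 2.02 ± 0.23 (SE), adjusted p = 4.16e-10), with a few young oocytes inside the CR range. Mfap3l, a membrane glycoprotein, rose with a log2 fold change of 1.66 ± 0.12 and Trim6, a ubiquitin ligase, with 1.66 ± 0.30. The other 3 of the 10 largest rises, mt-Co2, mt-Nd2 and mt-Nd1, are transcripts of the mitochondrial genome and are described with that group. Over the 4 groups, the medians in young, middle, old and CR oocytes were 69.7, 90.9, 94.9 and 199 CPM for Gpcpd1 and 22.3, 26.7, 24.5 and 60.9 CPM for Xiap. For Gpcpd1 the highest of the old oocytes was 139 CPM and the lowest of the CR oocytes 149 CPM.

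**Figure D3:**
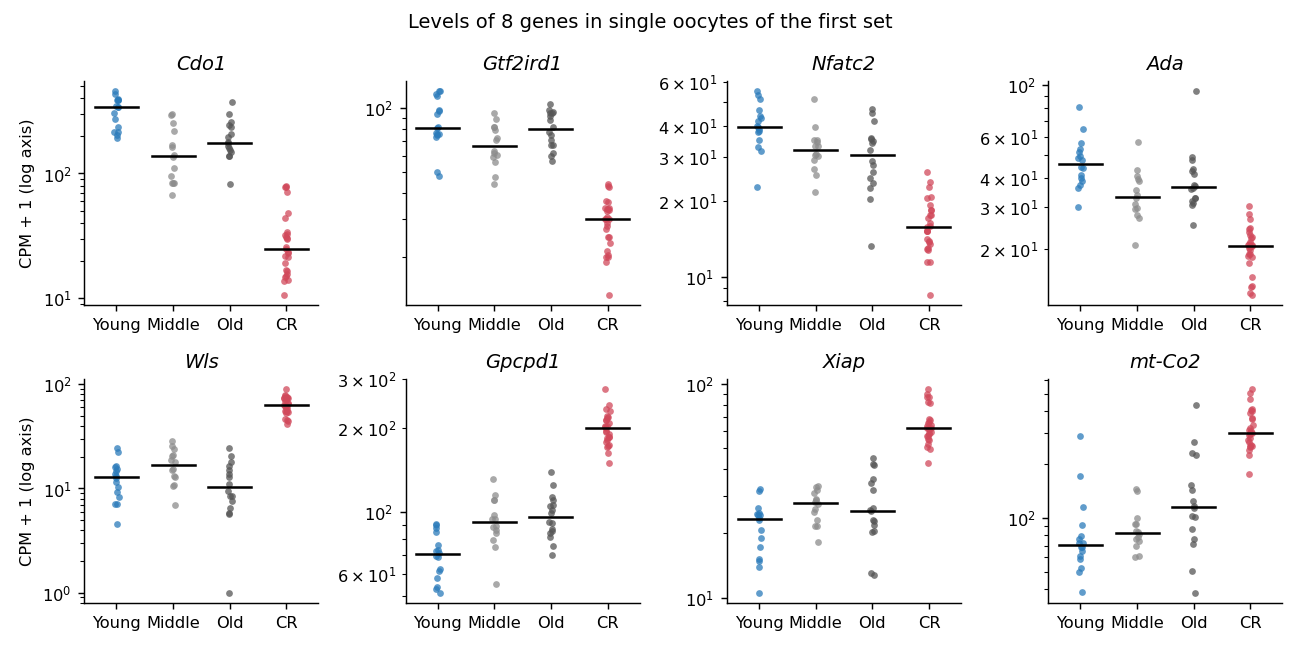
Level of 8 genes in single oocytes of the young, middle, old and CR groups (x axis), as CPM + 1 on a log axis (y axis), with 1 point per oocyte and bars at the medians. Cdo1, Gtf2ird1, Nfatc2 and Ada were lowest and Wls, Gpcpd1, Xiap and mt-Co2 highest in CR oocytes, and middle and old oocytes lay nearer to young ones for Wls (medians 15.7, 9.32 and 11.9 CPM).

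Genes of the chromosome segregation machinery were higher in CR than in young oocytes. The list holds 19 genes of kinetochores, spindle and cohesion that the study named from its comparison of CR with middle oocytes. It shares the CR libraries with the comparison made here, so its direction is not independent evidence. Of the 19, 18 rose, against 18.6% of all genes, and the other, the centrosomal kinase Nek2, did not pass (log2 fold change 0.10 ± 0.08 (SE), adjusted p = 0.408). The median log2 fold change was 0.65. The members are AT-rich (median GC content 42.9% against 48.7% for all genes tested), and after correction 15 were higher with a median of 0.33, beside 14.6% of all genes. On counts summed per mouse, 14 of 19 were higher, beside 7.73% of all genes, and 15 passed with each mouse left out, beside 7.43% of all genes. Their summed level was 1271 to 2730.5 CPM (median 2329) in young and 2721 to 3759.7 CPM (median 3190.4) in CR oocytes.

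Among them, Stag1, a cohesin subunit of the STAG family, had 16.1 to 36.7 CPM (median 25.9) in young and 41 to 84.2 CPM (median 58.6) in CR oocytes (log2 fold change 1.18 ± 0.09 (SE), adjusted p = 4.33e-15), with no overlap, and its value after correction was 0.78. Of the genes of the inner kinetochore, Cenpw had 6.27 to 16.6 CPM (median 8.25) and 8.02 to 28.8 CPM (median 16) (log2 fold change 0.92 ± 0.13 (SE), adjusted p = 1.39e-07). Cenph, of the same assembly, had 10.6 to 33.3 CPM (median 21.2) and 29.5 to 52.7 CPM (median 37.8) (log2 fold change 0.90 ± 0.10 (SE), adjusted p = 7.34e-10). For Cenpw the CR median lay inside the range of the young, and for Cenph the lowest CR oocytes reached into it. For the outer kinetochore, which grips microtubules, the log2 fold changes were 0.84 ± 0.11 for Spc25, 0.65 ± 0.09 for Ndc80, 0.79 ± 0.10 for Knl1, 0.31 ± 0.06 for Mis12 and 0.35 ± 0.08 for Ska3. Cenpe, the kinesin that moves chromosomes to the spindle equator, rose by 0.86 ± 0.10 (SE) on the log2 scale, and its count was not whole in 81.4% of libraries that detected it. Cenpf, another large kinetochore protein, rose by 0.57 ± 0.13, and did not pass after correction (0.21, adjusted p = 0.0562).

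The remaining members were motors, a checkpoint kinase and factors of cohesion and centromeres. Kif11, the motor that pushes spindle poles apart, had 38.8 to 79.1 CPM (median 63.5) in young and 79 to 139 CPM (median 106) in CR oocytes (log2 fold change 0.75 ± 0.08 (SE), adjusted p = 1.18e-10), and Kif2c, a kinesin that takes microtubules apart, rose by 0.49 ± 0.07 on the log2 scale. Bub1, a checkpoint kinase, rose by 0.37 ± 0.08 before and had 0.03 after correction (adjusted p = 0.752), and Esco2, an acetyltransferase that makes cohesin cohesive, rose by 0.65 ± 0.09 before and had 0.16 after (adjusted p = 0.0562). So 3 members, Cenpf, Bub1 and Esco2, were higher only before correction. Meikin, the meiosis-specific kinetochore factor, rose by 0.37 ± 0.12. Hjurp, the chaperone of the centromeric histone, rose by 0.37 ± 0.13, and its value was -0.04 without young mouse 2.

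The CCAAT box and the cell cycle homology region (CHR) are both known from promoters of cell division genes. Promoters of 4 of the segregation genes are shown, that of Stag1 as the largest rise of the list. Those of Cenpw, Spc25 and Kif11 were picked for holding both motifs, as the largest such rises. Each is given 5′ to 3′ on the strand of the gene from 250 bases before to 50 after the start site, from RefSeq on GRCm38.p6, with the motifs (CCAAT or its reverse complement, and TTTGAA or its reverse complement) in capitals.
Stag1, chr9:100643198-100643497, plus strand: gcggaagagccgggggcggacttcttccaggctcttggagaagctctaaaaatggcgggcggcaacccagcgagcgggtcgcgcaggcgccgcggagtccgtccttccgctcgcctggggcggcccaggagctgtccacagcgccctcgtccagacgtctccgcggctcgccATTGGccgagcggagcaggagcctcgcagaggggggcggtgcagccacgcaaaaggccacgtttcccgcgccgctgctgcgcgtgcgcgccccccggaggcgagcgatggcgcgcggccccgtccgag
Cenpw, chr10:30200491-30200790, minus strand: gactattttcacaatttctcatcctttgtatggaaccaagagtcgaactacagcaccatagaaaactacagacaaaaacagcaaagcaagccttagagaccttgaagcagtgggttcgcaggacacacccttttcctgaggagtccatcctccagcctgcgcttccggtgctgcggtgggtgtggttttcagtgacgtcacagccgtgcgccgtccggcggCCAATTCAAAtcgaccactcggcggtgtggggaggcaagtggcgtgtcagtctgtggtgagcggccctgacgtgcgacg
Spc25, chr2:69206164-69206463, minus strand: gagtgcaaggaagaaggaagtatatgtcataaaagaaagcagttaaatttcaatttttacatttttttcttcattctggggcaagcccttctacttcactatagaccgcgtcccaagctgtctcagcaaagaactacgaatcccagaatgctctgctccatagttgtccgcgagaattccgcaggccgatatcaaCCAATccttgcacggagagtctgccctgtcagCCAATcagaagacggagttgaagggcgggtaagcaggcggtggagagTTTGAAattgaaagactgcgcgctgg
Kif11, chr19:37376132-37376431, plus strand: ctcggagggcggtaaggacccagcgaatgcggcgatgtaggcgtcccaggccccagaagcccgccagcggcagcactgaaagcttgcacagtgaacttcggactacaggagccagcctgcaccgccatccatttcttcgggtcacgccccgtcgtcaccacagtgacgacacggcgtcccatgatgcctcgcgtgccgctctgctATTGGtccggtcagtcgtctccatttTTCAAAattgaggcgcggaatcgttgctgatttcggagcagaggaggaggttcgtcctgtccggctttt
In Cenpw the CCAAT and the reversed TTTGAA overlap by 1 base.

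A promoter sequence was found for 16 of the 19 genes. CCAAT was present on either strand in 12 of them and TTTGAA in 9, and 5 held both. Over all 32851 promoters of the same length, 37.4% held CCAAT, 17.9% TTTGAA and 6.95% both. In the sequences above, the CCAAT of Kif11 starts 45 bases and its TTTGAA 19 bases before the start site, while Stag1 holds a CCAAT 78 bases before and no TTTGAA in this window. A match is a run of letters and not a measured binding site.

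Cohesin subunits and their regulators, a wider list, were also mostly higher. Of 21 tested, 15 rose, 3 fell and 3 did not pass, with a median log2 fold change of 0.52. Of all genes 18.6% rose and 14.7% fell, and of protein-coding genes with at least 8 CPM 31.9% and 24%. The members are AT-rich (median GC content 42.3% against 48.7% for all genes tested). After correction 10 were higher and 2 lower, with a median of 0.21, beside 14.6% and 14.7% of all genes. Rad21, Stag1, Sgo1 and Esco2 are members of both lists. The meiosis-specific subunit Smc1b had 1.17 to 10.8 CPM (median 5.82) in young and 10.6 to 22.6 CPM (median 14.5) in CR oocytes (log2 fold change 1.36 ± 0.15 (SE), adjusted p = 6.10e-10), and Rad21l, a meiotic kleisin, had 0 to 2.36 CPM (median 1.01) and 0.906 to 9.60 CPM (median 2.91) (log2 fold change 1.49 ± 0.30 (SE), adjusted p = 1.04e-04), at the low end of what these libraries detect. Rad21, the kleisin of mitotic cohesin, rose with 0.62 ± 0.07 and Wapl, which opens the ring, with 0.70 ± 0.08. Sgo1, the shugoshin that guards cohesin at centromeres, had 19.4 to 65.1 CPM (median 41.7) and 57.7 to 100.5 CPM (median 72.1) (log2 fold change 0.74 ± 0.08 (SE), adjusted p = 6.33e-10). Against this direction, Smc1a, the partner of Smc3 in somatic cohesin, fell from 31.4 to 47.1 CPM (median 41.2) to 18.8 to 53.6 CPM (median 28.6) (log2 fold change -0.49 ± 0.09 (SE), adjusted p = 9.60e-06), and Mau2, which loads the ring, fell by 0.40 on the log2 scale (adjusted p = 0.00155). The third that fell was Cdca5 (-0.14, adjusted p = 0.0484), and the 3 that did not pass were Espl1 (-0.24), Hdac8 (0.14) and Stag3 (0.52). These 4, like other genes below that fall outside the rule for named genes, were named after their values were seen. Rec8 had too few counts in these libraries to be tested.

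The spindle checkpoint and the chromosomal passenger complex did not share that direction. Of 14 genes, 7 fell, 3 rose and 4 did not pass (median -0.18), and after correction 7 were lower and 1 higher. Aurkc, the Aurora kinase of meiosis, had 143 to 313 CPM (median 223) in young and 91.7 to 191 CPM (median 139) in CR oocytes (log2 fold change -0.67 ± 0.09 (SE), adjusted p = 1.03e-08), though its count was not whole in 97.7% of libraries that detected it. Fzr1, which activates the anaphase-promoting complex and keeps oocytes arrested, fell from 108 to 311 CPM (median 250.2) to 71.6 to 219.7 CPM (median 151) (log2 fold change -0.69 ± 0.10 (SE), adjusted p = 2.34e-07). The other genes that fell included the rest of the passenger complex, with log2 fold changes of -0.66 for Aurkb, -0.51 for Cdca8, -0.45 for Birc5 and -0.19 for Incenp, the last not past the threshold after correction. Those that rose were Mad2l1 (0.69 ± 0.09), which holds back anaphase, Bub1 and Ttk (0.30 ± 0.08). Bub1b, with the highest level of the list, had 678 to 2399 CPM (median 1822) and 1288 to 2084 CPM (median 1762) and did not pass (log2 fold change 0.02 ± 0.09 (SE), adjusted p = 0.897).

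Genes of meiotic arrest and resumption went both ways, with 5 of 18 higher and 4 lower, and 4 and 6 after correction. Mastl, the Greatwall kinase that protects mitotic phosphorylation, had 159 to 290.2 CPM (median 218) in young and 325 to 515 CPM (median 359.9) in CR oocytes with no overlap (log2 fold change 0.77 ± 0.07 (SE), adjusted p = 4.71e-13), and 0.38 after correction. Gpr3, the receptor that keeps cyclic AMP high during arrest, fell from 36 to 149.6 CPM (median 114) to 44.8 to 96 CPM (median 74.5) (log2 fold change -0.56 ± 0.10 (SE), adjusted p = 8.14e-06). Mos, the kinase that holds the second meiotic arrest, fell from 390.2 to 685 CPM (median 506) to 266 to 451 CPM (median 389) (log2 fold change -0.41 ± 0.06 (SE), adjusted p = 7.82e-07). Ccnb3, a cyclin of the first meiotic division, and Pde3a, which breaks down cyclic AMP, rose by 0.45 ± 0.10 and 0.43 ± 0.13 on the log2 scale and did not pass after correction (0.11 and 0.09). Wee2 (0.36 ± 0.07) and Ccnb1 (0.30 ± 0.07) also rose, and Pkmyt1 (-0.40 ± 0.12) and Plk1 (-0.31 ± 0.06) fell. Among 37 kinesins, 16 rose and 5 fell (median 0.32), and after correction 11 and 4. The shares over all genes were 18.6% and 14.7%, and 14.6% and 14.7% after correction. Kif23, a motor of cytokinesis, did not overlap, with 180.1 to 388 CPM (median 329.9) in young and 401 to 534 CPM (median 486) in CR oocytes (log2 fold change 0.60 ± 0.06 (SE), adjusted p = 8.95e-11). Of the 5 that fell, Kif18b, which trims astral microtubules, had -0.52 ± 0.09, and the others were Kif26a (-1.13 ± 0.31), Kif20a (-0.25 ± 0.06), Kif24 (-0.25 ± 0.10) and Kif22 (-0.20 ± 0.07). Kif6 passed the test although it was at 0 in all 16 young oocytes and had at most 3 counts in any CR oocyte, so no fold is given for it.

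**Figure D4:**
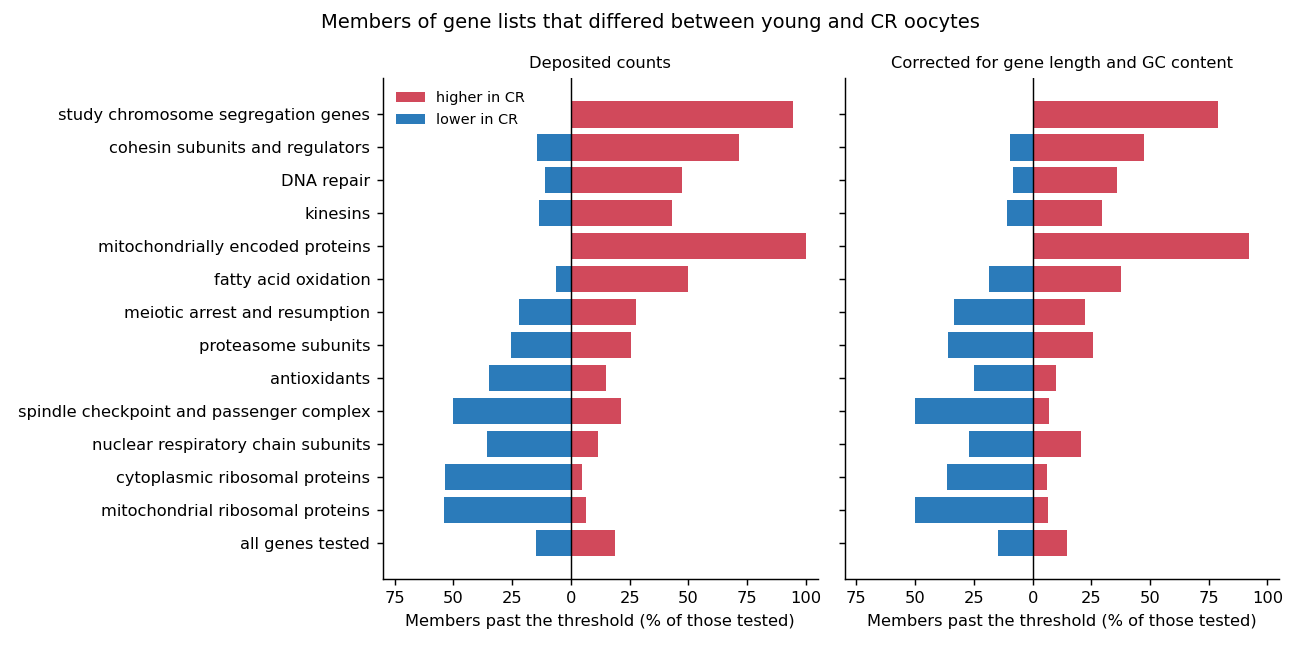
Percentage of the tested members of 14 gene lists that were higher or lower in CR than in young oocytes (x axis), 1 row of bars per list, from the counts as deposited and after correction for gene length and GC content. The background over all genes was 18.6% higher and 14.7% lower, the segregation list had 18 of 19 members higher, and 44 of 82 cytoplasmic and 42 of 78 mitochondrial ribosomal protein genes were lower.

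More genes of both ribosomes fell than rose in CR oocytes, though fewer did so on counts summed per mouse. Of 82 genes for cytoplasmic ribosomal proteins, 44 fell and 4 rose, with a median log2 fold change of -0.39, and after correction 30 were lower and 5 higher (median -0.29). Of 78 for mitochondrial ribosomal proteins, 42 fell and 5 rose (median -0.33), and after correction 39 were lower and 5 higher (median -0.31). On counts summed per mouse, 8 cytoplasmic and 17 mitochondrial genes were lower, beside 8.01% of all genes, and with each mouse left out 3 and 10, beside 5.02% of all genes. On those counts the cytoplasmic list was near or under the background. Without the 5 libraries that stood apart, 39 cytoplasmic genes were lower and 10 higher, and 39 and 8 mitochondrial ones. Ribosomal protein genes have many processed pseudogenes, and how far these share reads was not measured, so single values are uncertain. Their summed level overlapped widely between the groups, at 2258 to 10478 CPM (median 3917) in young and 2883 to 5225 CPM (median 3329.9) in CR oocytes for the cytoplasmic ribosome.

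Rpl13, a protein of the large subunit, had 20.2 to 168 CPM (median 48.8) in young and 16.3 to 46.5 CPM (median 26.2) in CR oocytes (log2 fold change -1.07 ± 0.15 (SE), adjusted p = 8.21e-08), and Rpl37a, of the same subunit, 6.12 to 61 CPM (median 10.7) and 2.39 to 13.4 CPM (median 6.54) (log2 fold change -1.18 ± 0.21 (SE), adjusted p = 7.49e-06). In both, the highest young oocytes exceeded every CR oocyte while the lower ones overlapped. Those that rose were Rpl22l1 (1.12 ± 0.20) and Rps27l (0.86 ± 0.17), which are paralogs of core subunits, with Rps4x (0.58 ± 0.10) and Rpl23 (0.45 ± 0.18). Rpl5, the highest of the list, had medians of 182 and 217 CPM and did not pass (adjusted p = 0.312), but was higher without the 5 libraries (0.23, adjusted p = 0.00108). In the mitochondrial ribosome, Mrpl58, a release factor within the large subunit, had 10.9 to 49.9 CPM (median 17) in young and 5.48 to 13.4 CPM (median 8.83) in CR oocytes (log2 fold change -1.12 ± 0.13 (SE), adjusted p = 1.75e-09). Mrpl54 fell from a median of 5.68 to 3.28 CPM (log2 fold change -1.05 ± 0.21 (SE), adjusted p = 9.72e-05). The genes that rose were Mrps18c (1.15 ± 0.16), Mrps6 (0.73 ± 0.17), Mrps23 (0.36 ± 0.09), Mrps33 (0.36 ± 0.13) and Mrpl17 (0.30 ± 0.08).

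The ETS motif is the run of letters bound by ETS factors and known from promoters of ribosomal protein genes (CCGGAAG or its reverse complement, in capitals). Promoters of 1 gene of each ribosome are shown, drawn as above. Each was picked for holding the motif, as the largest such fall among genes that passed with each mouse left out.
Rpl27a, chr7:109518945-109519244, plus strand: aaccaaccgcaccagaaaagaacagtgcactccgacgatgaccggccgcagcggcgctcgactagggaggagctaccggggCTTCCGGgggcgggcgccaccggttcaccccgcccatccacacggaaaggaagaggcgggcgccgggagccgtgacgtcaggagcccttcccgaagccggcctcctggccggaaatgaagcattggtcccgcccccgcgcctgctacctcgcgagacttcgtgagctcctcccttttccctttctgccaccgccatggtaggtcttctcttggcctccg
Mrpl58, chr11:115403502-115403801, plus strand: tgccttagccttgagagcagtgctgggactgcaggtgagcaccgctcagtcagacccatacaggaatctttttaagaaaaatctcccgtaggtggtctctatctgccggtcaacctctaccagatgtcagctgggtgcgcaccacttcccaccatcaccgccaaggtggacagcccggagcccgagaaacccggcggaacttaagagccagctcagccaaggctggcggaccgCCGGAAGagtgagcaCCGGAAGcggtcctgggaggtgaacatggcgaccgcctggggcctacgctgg
The motif was present in 25 of 62 cytoplasmic and 25 of 69 mitochondrial ribosomal protein genes with a promoter sequence, against 8.86% of all promoters. It was not particular to them, since 7 of the 16 promoters of the segregation genes held it too. In Mrpl58 it occurs 17 and 2 bases before the start site, and in Rpl27a, which fell with a log2 fold change of -1.07 ± 0.14, 169 bases before it. CCAAT was in 19 and 27 of these promoters and TTTGAA in 4 and 12.

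The transcripts of the mitochondrial genome were higher in CR oocytes, while the nuclear genes of the respiratory chain were split. All 13 protein-coding mitochondrial transcripts rose in CR oocytes (median log2 fold change 1.05), and 12 of 13 were higher after correction (median 0.77), the exception being mt-Nd3. The same 13 of 13 rose without the 5 libraries that stood apart. mt-Co2, a subunit of cytochrome c oxidase, had 37.9 to 291 CPM (median 67.8) in young and 174 to 501 CPM (median 293) in CR oocytes (log2 fold change 1.90 ± 0.18 (SE), adjusted p = 3.12e-12), and mt-Nd2, of complex I, 16 to 129 CPM (median 32.9) and 69.3 to 303 CPM (median 127) (log2 fold change 1.78 ± 0.18 (SE), adjusted p = 4.11e-11). The overlap came from a few young oocytes with high mitochondrial counts. mt-Co1, with the highest level, had medians of 539 and 1326 CPM (log2 fold change 1.19 ± 0.17 (SE), adjusted p = 1.87e-07). The nuclear genome holds copies of mitochondrial DNA, and the count of mt-Co2 was not whole in 93% of libraries that detected it. How many reads such copies took was not measured. Of 78 nuclear genes of the chain, 28 fell and 9 rose (median -0.16), and after correction 21 were lower and 16 higher (median -0.06). Leaving out the 5 libraries that stood apart gave 20 lower and 16 higher. Cox6a2, a muscle-type subunit of cytochrome c oxidase, had 2.77 to 10.9 CPM (median 5.80) and 0.865 to 3.79 CPM (median 1.76) (log2 fold change -1.56 ± 0.18 (SE), adjusted p = 6.44e-10). Uqcrb, of complex III, rose from 0.395 to 8.31 CPM (median 1.06) to 1.72 to 11 CPM (median 4.50) (log2 fold change 1.73 ± 0.27 (SE), adjusted p = 6.58e-07), and its count was not whole in 72.1% of libraries that detected it. Ndufa5, of complex I, rose by 0.89 ± 0.18 on the log2 scale.

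The genes that define an oocyte showed no common direction, with log2 fold changes between -0.48 and 0.66. Of 13 oocyte markers, 2 rose, 4 fell and 7 did not pass, with a median log2 fold change of 0.07, and after correction 4 were higher and 1 lower. Without the 5 libraries that stood apart 4 were higher (Nlrp5, Dppa3, Oosp1 and Npm2) and 3 lower (Zp3, Figla and Nobox). Gdf9 and Bmp15, the growth factors through which the oocyte directs its cumulus cells, had 2151 to 5328 CPM (median 4629) and 2017 to 4843 CPM (median 3859) in young and 2624 to 5359 CPM (median 4658) and 2845 to 5029 CPM (median 3787) in CR oocytes (log2 fold change 0.07 ± 0.09 and 0.07 ± 0.08). The groups overlapped over nearly their whole ranges. Zp1, Zp2, Kit, Oosp1 and Npm2 did not pass either, with log2 fold changes between -0.11 and 0.18. Zp3, a protein of the egg coat, fell from 1331 to 3706 CPM (median 2532) to 773 to 2347 CPM (median 1894) (log2 fold change -0.47 ± 0.10 (SE), adjusted p = 1.14e-04), and did not pass after correction (-0.15). Of the 4 that fell, Figla (-0.48 ± 0.14) and Nobox (-0.14 ± 0.06) are transcription factors of oocyte growth and Ooep (-0.31 ± 0.10) a protein of the subcortical maternal complex. For Nobox the value was 0.03 after correction, and for Ooep 0.05 without young mouse 2 and -0.14 without the 5 libraries (adjusted p = 0.117). Nlrp5 (0.66 ± 0.17), of the same complex, and Dppa3 (0.36 ± 0.10), which protects the maternal genome from demethylation, rose.

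Among secreted and surface proteins, 2 of 10 passed, both lower. After correction Fgf8 was lower and Gdf9 higher, and without the 5 libraries 2 were lower (Zp3 and Fgf8) and 2 higher (Oosp1 and Oosp2). Besides Zp3 the gene that fell was Fgf8, the growth factor that supports glycolysis in cumulus cells, with 40.4 to 126 CPM (median 54.9) in young and 24 to 39.7 CPM (median 33.3) in CR oocytes and no overlap (log2 fold change -0.98 ± 0.10 (SE), adjusted p = 2.76e-11). In the subcortical maternal complex, which sits under the egg membrane and serves the early embryo, 3 of 8 fell (Khdc3, Zbed3 and Ooep) and 2 rose (Nlrp4f and Nlrp5), and the counts were the same after correction. Khdc3 had 159 to 250.1 CPM (median 195) in young and 33.1 to 141 CPM (median 106) in CR oocytes, with no overlap (log2 fold change -0.90 ± 0.10 (SE), adjusted p = 3.85e-10), and its partner Nlrp4f rose from 509 to 1509 CPM (median 1127) to 1364 to 1822 CPM (median 1585) (log2 fold change 0.50 ± 0.08 (SE), adjusted p = 1.63e-06). These genes belong to families of close copies, and their counts were not whole in 62.8% and 72.1% of libraries that detected them. Of the regulators of stored mRNA, 3 of 16 rose and 5 fell, and after correction 3 were higher and 9 lower. The counts were 5 higher and 6 lower without the 5 libraries. Ybx2, the RNA-binding protein that packages stored mRNA, fell from 158 to 363 CPM (median 203) to 91.8 to 167 CPM (median 139) (log2 fold change -0.65 ± 0.08 (SE), adjusted p = 1.74e-09), and had -0.17 after correction (adjusted p = 0.0459). Zar1, which is needed for the maternal mRNA store, and its relative Zar1l fell by 0.37 and 0.62 on the log2 scale, and Ddx6, a helicase of storage granules, rose by 0.68 ± 0.13. The others that passed were Patl2 (0.31 ± 0.10) and Cnot6l (0.18 ± 0.06), which rose, and Cpeb1 (-0.25 ± 0.07) and Igf2bp2 (-0.17 ± 0.05), which fell. Of 10 oocyte transcription factors, Taf4b (0.43 ± 0.14) and Sohlh1 rose, the latter from a median of 0 to 1.41 CPM, and Figla, Nobox, Tbpl2 (-0.43 ± 0.15) and Pou5f1 (-0.36 ± 0.07) fell, and after correction 1 was higher and 1 lower. Tbpl2 did not pass without the 5 libraries (-0.25, adjusted p = 0.191). Of 11 genes of DNA methylation, Setdb1 (0.33 ± 0.10) and Dppa3 rose, Trim28 (-0.39 ± 0.11) fell and 8 did not pass. After correction 3 were higher (Dnmt3l, Setdb1 and Dppa3) and 2 lower (Dnmt3a and Zfp57), and without the 5 libraries 2 were higher (Setdb1 and Dppa3) and 3 lower (Uhrf1, Dnmt1 and Trim28). Dnmt1, the maintenance methyltransferase, had medians of 4515 and 4211 CPM (adjusted p = 0.847).

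The pathways through which a cell senses nutrients showed no common direction. Of 35 genes of insulin, mTOR, AMPK and FOXO signalling, 8 rose and 6 fell (median 0.01), and after correction 3 were higher and 3 lower. The uncorrected shares were near the background of 18.6% and 14.7% of all genes. They were under those of protein-coding genes with a mean of at least 8 CPM, of which 2751 of 8617 rose and 2068 fell. Foxo3, which keeps primordial follicles dormant, had 317 to 1306 CPM (median 1128) in young and 498 to 1184 CPM (median 947) in CR oocytes and did not pass (log2 fold change -0.14 ± 0.11 (SE), adjusted p = 0.361), but was lower without the 5 libraries that stood apart (-0.22, adjusted p = 4.96e-05). Prkab2, a regulatory subunit of AMPK, rose from 6.45 to 20.2 CPM (median 13.6) to 10.9 to 38 CPM (median 30.7) (log2 fold change 1.09 ± 0.15 (SE), adjusted p = 3.49e-08). Ddit4, an inhibitor of mTOR, fell from 48.7 to 144 CPM (median 117) to 43.8 to 106 CPM (median 61.8) (log2 fold change -0.62 ± 0.12 (SE), adjusted p = 6.07e-05) and did not pass after correction (-0.27). Of 7 sirtuins, 1 rose and 3 fell, and after correction 1 was higher and 2 were lower. Sirt4, a sirtuin of mitochondria, had 8.19 to 21.4 CPM (median 11) in young and 2.68 to 8.34 CPM (median 4.11) in CR oocytes (log2 fold change -1.45 ± 0.12 (SE), adjusted p = 1.95e-13), with an overlap at its edge only, and Sirt5, also mitochondrial, rose from 8.31 to 18.5 CPM (median 13) to 14.9 to 29.8 CPM (median 23.1) (log2 fold change 0.68 ± 0.09 (SE), adjusted p = 2.31e-08). Sirt7 fell by 0.41 and Sirt6, named after its value was seen, by 0.33. Sirt1, the member most studied in calorie restriction, had medians of 61.2 and 57.4 CPM and did not pass (log2 fold change 0.13 ± 0.18 (SE), adjusted p = 0.650).

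Of 20 antioxidant genes, 3 rose and 7 fell, and after correction 2 were higher and 5 lower. Hmox1, the heme oxygenase induced by oxidative and heme stress, was low in young oocytes (0 to 3.86 CPM (median 0.951)) and rose to 2.54 to 14.3 CPM (median 8.21) in CR oocytes (log2 fold change 2.57 ± 0.26 (SE), adjusted p = 3.98e-11), and Nfe2l2, the transcription factor known as Nrf2, rose from 7.71 to 29.2 CPM (median 16.6) to 18.8 to 49.6 CPM (median 28.3) (log2 fold change 0.74 ± 0.13 (SE), adjusted p = 5.12e-06). Both kept their direction after correction (2.76 and 0.60). The genes that fell most were Txn2, the mitochondrial thioredoxin (-0.66 ± 0.08), and Prdx5, a peroxiredoxin (-0.63 ± 0.10). The third that rose, Gclm (0.23 ± 0.07), did not pass after correction. Of 18 genes of the integrated and endoplasmic reticulum stress responses, 4 rose and 3 fell, and after correction 3 and 3. Hsp90b1, a chaperone of the endoplasmic reticulum, had 87.1 to 136 CPM (median 117) and 133 to 308 CPM (median 185) (log2 fold change 0.76 ± 0.09 (SE), adjusted p = 7.04e-10, count not whole in 86% of libraries that detected it), and Eif2ak4, the kinase that senses lack of amino acids, fell from 24.9 to 163 CPM (median 129) to 38.5 to 119.8 CPM (median 85.1) (log2 fold change -0.50 ± 0.13 (SE), adjusted p = 0.00161). Asns (0.84 ± 0.24), Ppp1r15b (0.33 ± 0.12) and Ddit3 (0.38 ± 0.15) were the others that rose, and Phgdh (-0.55 ± 0.11) and Ppp1r15a (-0.44 ± 0.08) the others that fell.

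Of 16 genes of fatty acid oxidation, 8 rose and 1 fell (median 0.30), and after correction 6 were higher and 3 lower (median 0.31). The shares over all genes were 18.6% and 14.7%, and 14.6% and 14.7% after correction. On counts summed per mouse 4 were higher, and without the 5 libraries 7 were higher and 3 lower (Hadha, Acadvl and Pdk4). Pdk3, a kinase that turns pyruvate away from oxidation, had 10.4 to 33.5 CPM (median 20.4) in young and 32.9 to 55.4 CPM (median 43.2) in CR oocytes (log2 fold change 1.01 ± 0.10 (SE), adjusted p = 1.09e-11), with almost no overlap. Ppargc1a, the coactivator of mitochondrial genes, was at 0 in 11 of 16 young oocytes, none of which had more than 2 counts, and had 0 to 2.67 CPM (median 0.906) in CR oocytes (adjusted p = 4.97e-05), too near the floor for a fold. Hadha, of the trifunctional protein of beta oxidation, was the one that fell (-0.22 ± 0.06), and Cpt2, with the highest level, did not pass (log2 fold change 0.08 ± 0.10 (SE), adjusted p = 0.620). In the circadian list of 15, 2 rose and 2 fell, and they were the 2 REV-ERB repressors in opposite directions with Clock and Per1. After correction 4 were higher (with Per2 and Cry2) and 2 lower (Nr1d1 and Arntl), and without the 5 libraries 2 were higher and 4 lower (Nr1d1, Per1, Cry1 and Arntl). Nr1d2 rose from 4.99 to 16 CPM (median 9.44) to 12.4 to 35.8 CPM (median 22.3) (log2 fold change 1.10 ± 0.14 (SE), adjusted p = 9.50e-09) and Nr1d1 fell from 63.6 to 136 CPM (median 78.4) to 33.5 to 65.2 CPM (median 50.7) (log2 fold change -0.73 ± 0.08 (SE), adjusted p = 5.85e-10). Clock rose by 0.68 ± 0.09, and Per1 (-0.44 ± 0.11) did not pass after correction.

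DNA repair genes were more often higher than lower in CR oocytes. Of 36, 17 rose and 4 fell (median 0.26), beside 18.6% higher and 14.7% lower of all genes. Among protein-coding genes with a mean of at least 8 CPM the shares were 31.9% and 24%. After correction 13 were higher and 3 lower (median 0.14), beside 14.6% and 14.7% of all genes. On counts summed per mouse 9 were higher and 2 lower, beside 7.73% and 8.01% of all genes. Brca2, the mediator of homologous recombination, had 79.6 to 419.9 CPM (median 323) in young and 380.5 to 574 CPM (median 502) in CR oocytes (log2 fold change 0.66 ± 0.12 (SE), adjusted p = 8.84e-06), and Mre11a, the nuclease that trims broken ends, 5.54 to 24.1 CPM (median 16.5) and 20.5 to 37.1 CPM (median 30.1) (log2 fold change 0.86 ± 0.11 (SE), adjusted p = 6.39e-09). Xrcc4, which joins ends in the non-homologous pathway, rose by 1.0 ± 0.14 on the log2 scale. Those that fell were Ung (-0.44 ± 0.07) and Ogg1 (-0.42 ± 0.11), the glycosylases that remove uracil and oxidised guanine, with Xrcc1 (-0.40 ± 0.09) and Xrcc6 (-0.17 ± 0.07), and Ung alone of these 4 passed after correction (-0.58).

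In the remaining lists the proteasome was split and more subunits of RNA polymerase II fell than rose. Of 39 proteasome subunits, 10 rose and 10 fell, and after correction 10 were higher and 14 lower. Psmc6 of the regulatory particle rose from a median of 23.9 to 45.2 CPM (log2 fold change 0.87 ± 0.10 (SE), adjusted p = 3.57e-10) and Psma7 of the core particle fell from 69 to 43.8 CPM (log2 fold change -0.77 ± 0.10 (SE), adjusted p = 3.04e-08). Of 13 RNA polymerase II subunits, 8 fell and 3 rose (Polr2k, Polr2b and Polr2m), beside 14.7% of all genes lower. After correction 4 were lower and 1 higher, and without the 5 libraries 5 and 2. Polr2f, shared by all 3 RNA polymerases, fell from 12 to 7.92 CPM in the median (log2 fold change -0.92 ± 0.16 (SE), adjusted p = 6.04e-06). Of 61 core histone genes, mostly near the floor of detection and nearly identical in sequence, 3 rose (Hist2h4, Hist2h2bb and Hist1h2ac) and 8 fell, and after correction 2 were higher and 2 lower. Of 10 long noncoding RNAs tested, Snhg1, a snoRNA host gene, rose (log2 fold change 1.0 ± 0.16 (SE), adjusted p = 2.41e-06), and the other 9 did not pass. After correction Rn7sk was higher as well, and without the 5 libraries Snhg1, Rn7sk and Gas5 were higher and Meg3 and Neat1 lower. Of the 10 cumulus cell markers, Kitl (1.10 ± 0.21) and Nr5a2 (0.53 ± 0.10) were higher and the other 8 did not pass. The list's median log2 fold change was 0.32, against 0.05 for all genes. After correction Kitl alone was higher (list median 0.42), and without the 5 libraries 3 were higher. In the theca and luteal list, Star and Cyp17a1 passed at 0 to 3.24 CPM (median 0.454) and 0 to 4.16 CPM (median 0) in young against 0.235 to 6.43 CPM (median 1.64) and 0 to 2.56 CPM (median 0.531) in CR oocytes, near the floor in both groups. Both were higher after correction too.

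Genes that change with age were taken from the second set of libraries, which shares no library with the first, to see where young and CR oocytes lie on them. There, oocytes of mice at 14 months (16 libraries) were compared with oocytes at 2 months after hyperovulation (24 libraries) by edgeR, and the 100 genes with the smallest p in each direction, among those with a mean of at least 8 CPM, were kept (97 and 90 passed a false discovery rate of 5%). On these genes the CR oocytes lay on the far side from the young, in the direction of the older mice of the second set. Of the 100 genes higher at 14 months, 69 were higher and 2 lower in CR than in young oocytes, with a median log2 fold change of 0.46, and after correction 57 and 7 (median 0.34). Of the 100 genes lower at 14 months, 83 were lower and 2 higher in CR oocytes (median -0.62), and after correction 75 and 1 (median -0.44). Some of these entries are not separate observations if they share reads. Gm15459 and Gm26825 had nearly the same log2 fold change (-0.35 each), and Tubb4b is listed beside its pseudogene Tubb4b-ps1. How many reads such entries share was not measured. Over all genes tested, 18.6% were higher and 14.7% lower, or 14.6% and 14.7% after correction. The age genes had a mean of at least 8 CPM, so better expressed genes are the closer background. Of 8617 protein-coding genes with a mean of at least 8 CPM, 2751 were higher and 2068 lower. After correction these were 1993 and 2253 of 8604. Each set of age genes lay above these shares in its own direction, before and after correction.

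The mean level of the 100 higher genes, in log2(CPM + 1), was 5.52 to 6.22 (median 6.08) in young and 6.42 to 6.67 (median 6.59) in CR oocytes. The medians of middle and old oocytes of the first set were 6.22 and 6.18. For the 100 lower genes the values were 5.53 to 6.02 (median 5.85) in young and 5.12 to 5.36 (median 5.25) in CR oocytes, and the medians of middle and old oocytes were 5.72 and 5.55. On both sets of genes the young and CR ranges did not overlap, and the old oocytes of the first set spread widely, with 9 of 16 inside the young range on the higher and 8 of 16 on the lower genes. These are levels and are given with no test. The genes also differ in composition, with a median GC content of 45.8% among the higher and 54.2% among the lower ones, the same order as the GC slope of the CR oocytes. Several of the genes described above were among them, with log2 fold changes at 14 months of -0.68 for Cdo1, -0.30 for Nfatc2, -0.49 for Sox8 and 0.22 for Gpcpd1.

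**Figure D5:**
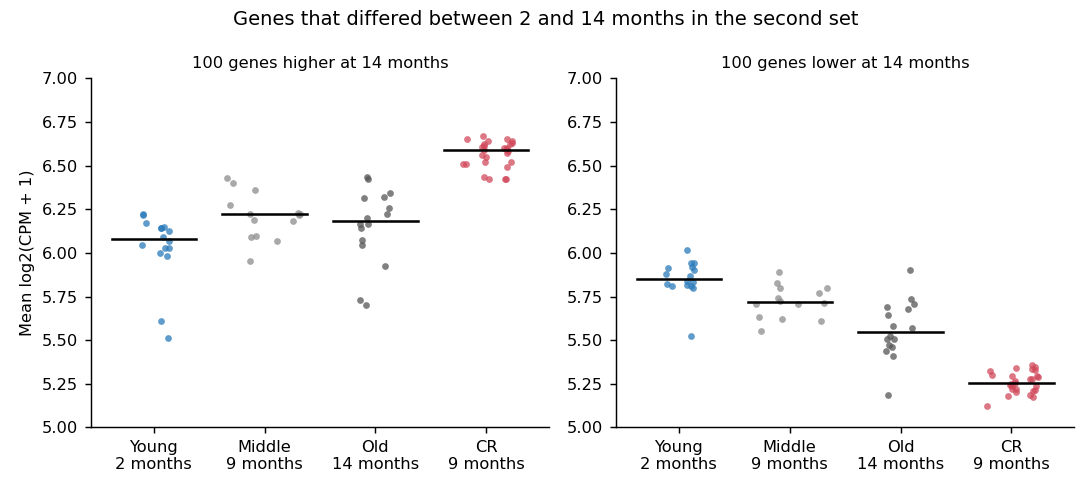
Mean log2(CPM + 1) of the 100 genes higher and the 100 genes lower at 14 months in the second set (y axis) in single oocytes of the first set's groups (x axis), with 1 point per oocyte and bars at the medians. On the higher genes young oocytes lay at 5.52 to 6.22 and CR oocytes at 6.42 to 6.67, and on the lower genes at 5.53 to 6.02 and 5.12 to 5.36.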

How the data were processed

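Expected counts were deposited by the authors, who mapped RamDA-seq reads to GRCm38 with HISAT2 2.0.5 and assigned them to GENCODE genes by featureCounts 1.5.1, dividing reads that map to several genes, so that 37.2% of nonzero values here were not whole. They were rounded. RPKM files and the other 199 count columns, all of the second set, were not used.

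The test was run on genes seen in 5 or more of the 43 libraries, with edgeR 4.0.16 (TMM, quasi-likelihood F test, R 4.3.3), at a false discovery rate of 5%. p-values over oocytes measure the spread between oocytes, several of which share a mouse. In data simulated for this comparison with 24434 genes, 96 of 100 genes changed by a log2 of 1 and 77 of 100 changed by 0.5 were recovered, with 27 false calls. The false calls were a larger share of the calls than the 5% set. The simulated oocytes were independent, with no differences between mice, and only genes of at least 8 CPM were changed. The simulation therefore cannot tell how many calls in the real data come from differences between mice. Levels are TMM-normalised counts per 1000000 (CPM). The correction removed each library's trend with gene length and GC content (GENCODE M21). For distances, shares and detected genes, labels were permuted over oocytes (two-sided, 100000 resamples) and, exactly, over mice.

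Members and gene lists were chosen with earlier results of these data known. The genes named are the 10 largest rises and falls that passed with each mouse left out and had a mean of at least 20 CPM, of each list the 2 largest rises and falls past the threshold and its highest member, all oocyte markers, and all of the study's segregation genes. Others were named after their values were seen, and a gene that the rule names is not reported here. Added after seeing the data were the exclusion of 5 libraries, the corrected distance and the comparisons of middle and of old with CR distances. No pair of the 43 libraries was a duplicate. Alternatives used DESeq2 1.42.0 and limma 3.58.1.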

Additional observations from a re-analysis of the deposited data

How the results depend on the processing

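No paired analysis was possible because young and CR oocytes came from different mice, the shared numbers 1 and 2 only name mice, and CR mouse 3 has no partner. The count of genes past the threshold (8361) fell to 3948 on counts summed per mouse (1938 higher, 2010 lower) and lay between 3954 and 8261 with each mouse left out, with 2279 to 4607 higher and 1675 to 3654 lower. The lowest of each came without young mouse 2, which gave 12 of the 16 young oocytes. DESeq2 gave 7964 genes, edgeR's likelihood ratio test 8262, 1000000 counts per library 6472 and the cumulus share as a covariate 9008. With limma-voom and the mouse as a random effect, 9232 genes passed, of which 43% were higher against 55.8% in edgeR, and the median of all genes moved from 0.05 to -0.15. DESeq2 gave 49.8% higher.

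The higher distance of CR oocytes to the young profile ranged from 0.120 to 0.164 with each mouse left out, and no longer passed without young mouse 2 (0.12, Holm-adjusted permutation p = 0.0636) or without drawing down (0.0985). That of old oocytes ranged from -0.000481 (without the label that joins 2 old mice) to 0.370, and was 0.233 without young mouse 1, 0.288 without young mouse 2 and 0.195 without drawing down, none of which passed. Without drawing down, CR oocytes had 1630 more genes detected and a spread that differed by -0.117 (permutation p = 0.0179). All values without drawing down include the young library too shallow to be drawn down, so they do not show depth alone. Without the 5 libraries, the spread differed by -0.0363 and the mitochondrial share, which had helped to set them apart, by 0.395. Of 157 named genes, 32 no longer passed on counts summed per mouse, 38 without young mouse 2 and 21 after correction. The direction reversed for Kif6 with limma-voom (-0.21), Hjurp (-0.04 to 0.54 with each mouse left out) and Ooep (-0.40 to 0.05) without young mouse 2, and Nobox (0.03) after correction. The cause of these changes was not tested. Genes with few counts in the shallower young libraries could be missed at this depth.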
